A study of Mus musculus with 15 samples.

Results

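Mouse LSK cells that had spent 18 h in culture medium without extracellular vesicles were compared with LSK cells taken directly after sorting, across all measured genes. The comparison used the arrays whose sample titles name these conditions, 5 for each, which are 10 of the 15 arrays of the study. The remaining 5 arrays, of cells kept for the same time with vesicles (EV) from AFT stromal cells, entered the fit only through the shared estimate of spread. The medium was Myelocult M5300, with no further additions named in the labels. The labels give neither the strain, the age nor the number of animals behind a sample. The study's design text calls the 5 samples of each condition biological replicates, so the p-values below measure the spread between such samples and nothing wider. Genes were the 22180 with a probe set carrying exactly 1 gene symbol, each represented by its brightest probe set over all 15 arrays. Every value is a deposited array value, read as log2 because its range fits that base, which the labels do not state. On that reading a difference of 1 is a doubling of signal.

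LSK cells are bone marrow cells that lack markers of mature lineages and carry Sca-1 and KIT, a fraction that holds the blood stem cells and the multipotent progenitors. In the marrow most stem cells are quiescent, and their state is held by contact with stromal cells and by local cytokines. Sorting and culture remove the cells from that setting, and a comparison of this kind shows which transcripts differ between the freshly sorted and the cultured state. In pooled RNA of this type, a lower level from fewer cells of a type and from less RNA per cell cannot be told apart.

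The arrays of each condition lay close together. Mean correlations within a condition were between 0.976 and 0.982 per array, and between conditions from 0.951 to 0.957. The first principal component of the 10 arrays held 47.1% of the variance and separated the groups without overlap, with fresh arrays between -35.7 and -29.6 and cultured arrays between 32.0 and 34.6. On the second component, with 9.46% of the variance, fresh replicates 4 and 5 lay at -22.9 and -18.2, apart from fresh replicates 1 to 3 at 0.2 to 23.6, and cultured replicate 1 lay at 22.4, apart from the other cultured arrays at -7.9 to -0.2. Fresh replicates 4 and 5 also had lower values of late neutrophil genes, as given below. Most list counts that moved by more than 1.5 times with either set of fresh arrays as the reference are given with that value. Small counts that moved are not all given. Against fresh replicates 4 and 5 alone, with fewer arrays in the fit, the counts over all genes were 678 higher and 760 lower.

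The labelled cell type was checked against marker lists. The 12 measured LSK-defining genes had a summed linear signal of 4770 to 5710 in fresh arrays and 5350 to 5700 in cultured arrays. Such a sum is weighted to the brightest genes. Of the 12 genes 3 were called higher and 2, Cd48 and Mecom, lower (median -0.17). These counts were 3 and 0 against fresh replicates 1 to 3 alone, and 1 and 2 against replicates 4 and 5 alone. Kit, the stem cell factor receptor, was at 9.58, 9.55, 9.25, 9.89 and 9.81 in fresh arrays and at 10.05, 10.03, 10.01, 10.09 and 9.87 in cultured arrays. Cd34, the sialomucin of early progenitors, was at 10.42 to 10.47 in cultured arrays and 10.51 to 10.70 in fresh arrays, a difference of -0.19 ± 0.08 (SE) that did not pass the test (limma adjusted p = 0.148). Kit differed by 0.39 ± 0.12 with 24 of 25 array pairs in that direction, and its call (adjusted p = 0.0429) was kept in 3 of the 10 fits that each left out 1 array. Among 18 mature T and NK cell markers 13 had a mean below the array medians, and the summed signal went from 650 to 873 in fresh arrays to 434 to 513 in cultured arrays. In that list 2 of 18 members were called, both lower: Nkg7, a granule protein of cytotoxic cells, by -2.11 ± 0.20, and Thy1, by -0.86 ± 0.17. The 12 mature neutrophil markers summed to 353 to 1830 in fresh arrays and to 3030 to 5100 in cultured arrays. Of these 12 markers 5 (41.7%) were called higher and 0 lower (median 0.82), beside 6.75% higher over all genes. The 13 mature macrophage markers summed to 244 to 269 and to 299 to 362, with 9 of them below the array medians. Markers of mature B cells and of red cells had 0 of 10 and 0 of 2 members called, and stromal and endothelial markers 1 of 17 higher and 1 lower. The part of contaminating mature cells in the results on neutrophil and T or NK genes was not tested.

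Of the 22180 genes, 1497 (6.75%) were higher and 1525 (6.88%) lower after culture at a Benjamini-Hochberg adjusted p under 0.05 in limma. A change of more than 2-fold was called for 419 genes (1.89%) in the upward and 393 (1.77%) in the downward direction. The median difference over all genes was 0.01. Among the 3022 called genes, 2246 had the same sign in all 25 pairs of a cultured and a fresh array. Calls depended on brightness: with the genes in 5 classes of equal size by level, 0.834% of the dimmest class were called, against 32.6% of the brightest and 23.1% of the class below it. Protein-coding genes were called higher in 1409 and lower in 1435 of 18964 cases. Long noncoding RNAs were more often called higher than lower, with 64 (3.32%) against 29 (1.51%) of 1926, both under the shares over all genes. The 80 measured small nucleolar RNA genes had 0 calls upward and 10 downward (12.5%).

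**Figure D1:**
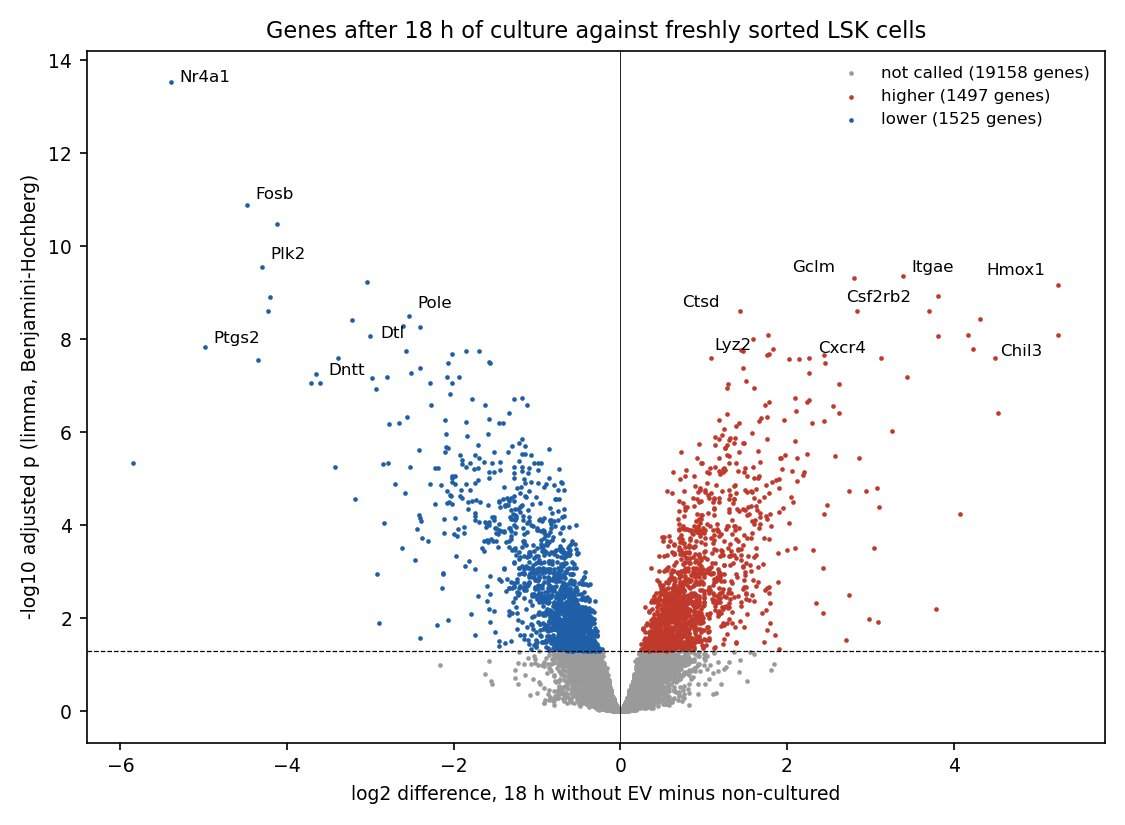
Each point is 1 of 22180 genes; the horizontal axis is the log2 difference of cultured (18 h without EV) minus fresh arrays and the vertical axis is -log10 of the limma adjusted p, with the dashed line at 0.05. The 1497 higher genes (red) and 1525 lower genes (blue) are of similar number, and the gene with the smallest adjusted p is Nr4a1, at -5.39.

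Gene lists were drawn up by function, with earlier results of these data known, so their counts describe the members and are not a test. Each list is described by how many measured members were called in each direction and by their median difference. Beside these stand the 6.75% higher, 6.88% lower and median 0.01 over all genes. The lists whose members were mostly lower held transcription factors of the immediate response to stimuli, feedback regulators of MAP kinases and the machinery of DNA replication. Those with the most members higher held cytokine receptors, monocyte genes, lysosomal proteins, enzymes of sterol synthesis and the glutathione and thioredoxin system. For every called gene named below the 5 cultured values lay on 1 side of the 5 fresh values, except for Kit, Cd48, Cpt1a, Hdc, Hoxb3, Id3, Ngp, Nlrp3, Samhd1, Tal1 and Tet2, where 1 or 2 of the 25 array pairs went the other way. With fresh replicates 4 and 5 alone as the reference, which leaves fewer arrays in the fit, 29 of the 194 called genes named in the text were not called: Adgre1, Alox5, Apoe, Arsb, Cd48, Chek2, Ezh1, Gapdh, Gata1, H2-K1, Hdc, Hk2, Hoxb3, Kit, Mafg, Mdm2, Mpo, Myb, Nab2, Nlrp3, Prg2, Ptger4, Rfc2, Samhd1, Siglech, Socs5, Spic, Tal1 and Traf6. With fresh replicates 1 to 3 alone these were Cd48, Gata1, Id3, Mecom, Ngp and Rfc2. The list counts of 3 or fewer called members were the least stable. Against fresh replicates 1 to 3 alone, for example, 2 members were higher of the Kruppel-like list. With that reference 1 member was lower of the Fc receptor list, 2 of the mast cell list and 0 of the late neutrophil list. When single arrays were left out, the lower members numbered 0 to 2 of the sterol list, 0 or 1 of the heme and metal lists, 0 to 2 of the erythroid list, 2 to 4 of the integrins and 3 to 5 of the aminoacyl-tRNA synthetases, and the higher members 0 to 2 of the nucleotide list, 0 or 1 of the one-carbon list and 1 or 2 of the proteasome list. Other such small counts also differed by reference: against fresh replicates 4 and 5 alone 0 members were higher of the AP-1, one-carbon, licensing and polymerase lists, 0 lower of the monocyte, mast cell, sterol, heme and metal lists, 1 lower of the glutathione, lysosomal and integrin lists, 1 higher of the DNA repair list, and 2 higher of the lymphoid and polyamine lists and 2 lower of the megakaryocyte list.

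**Figure D2:**
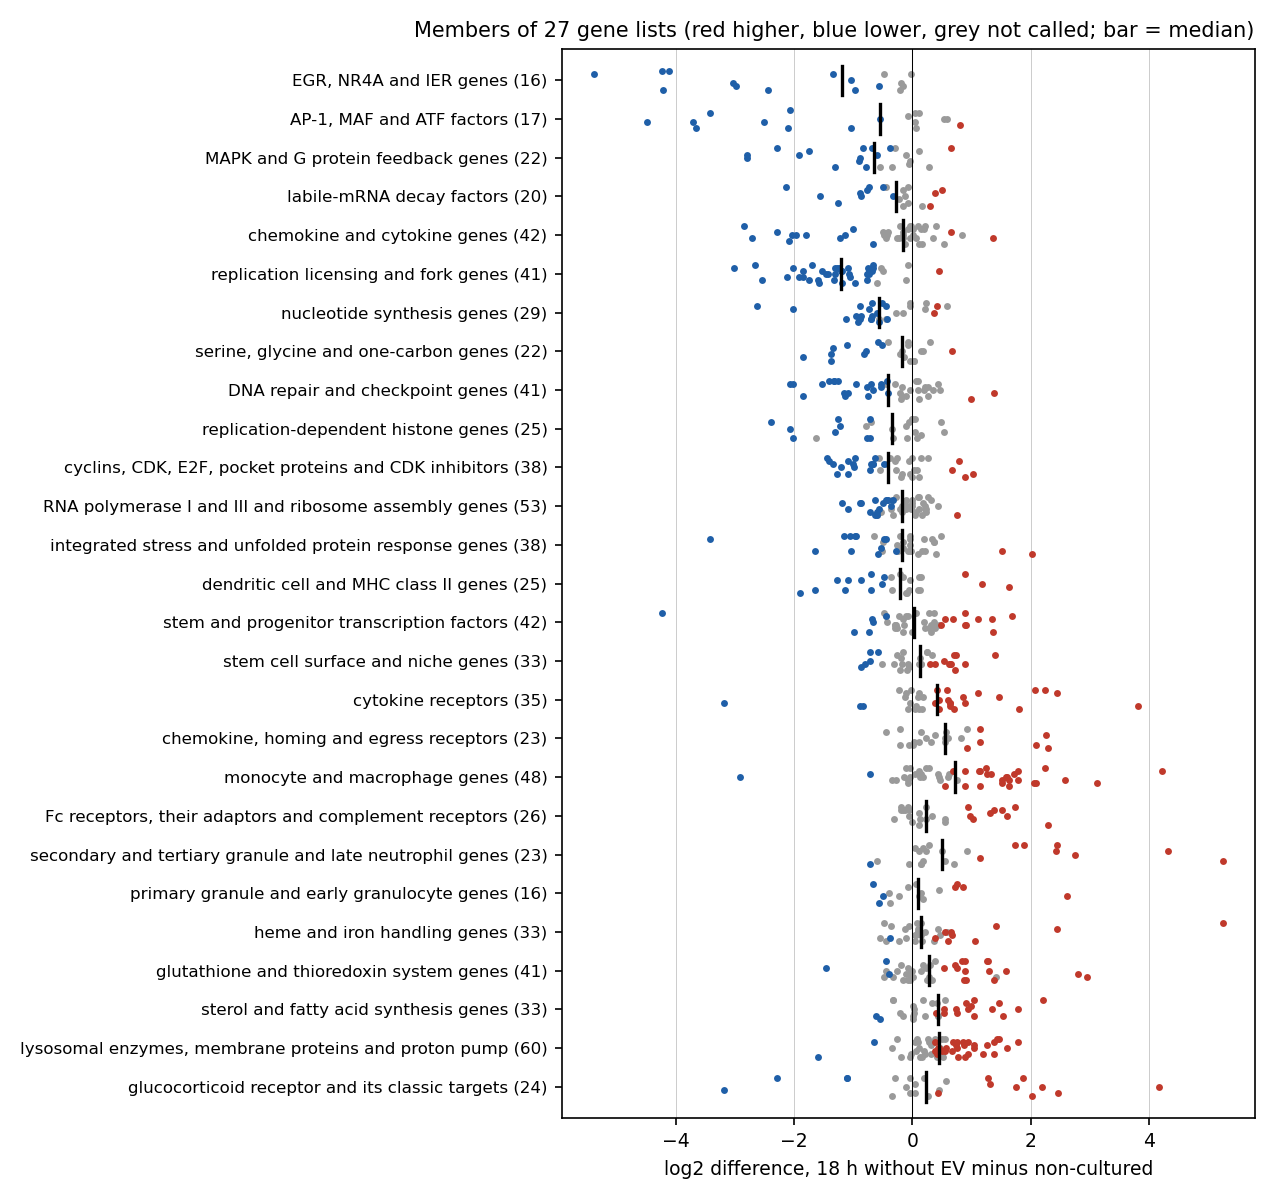
Each row is a gene list with its number of measured members in parentheses, and each point is a member's log2 difference (18 h without EV minus non-cultured), red if called higher, blue if called lower and grey if not called; black bars are medians. The median was lowest in the replication licensing list (-1.2) and the EGR, NR4A and IER list (-1.19) and, of the 27 lists drawn, highest in the monocyte and macrophage list (0.72).

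Many stimulus-response transcription factor genes were lower after culture. Such genes are transcribed within minutes of a growth factor, cytokine or stress signal without new protein synthesis, and their transcripts are normally short-lived. In the list of EGR, NR4A and IER genes 11 of 16 were lower and 0 higher, with a median of -1.19. Nr4a1, an orphan nuclear receptor, was at 11.38, 11.37, 11.37, 11.57 and 11.52 in fresh arrays and at 5.72, 6.14, 6.0, 6.20 and 6.17 in cultured arrays. The groups were far apart and each was tight, and the fall was 42.0-fold (-5.39 ± 0.11, adjusted p = 2.96e-14). Egr3, a zinc finger factor, was at 7.32, 7.26, 7.81, 8.44 and 8.27 when fresh and at 4.83, 4.91, 4.82, 4.87 and 4.78 after culture. Fresh replicates 4 and 5 were the highest of their group, and the fall was 7.87-fold (-2.98 ± 0.21, adjusted p = 6.94e-08). Egr2 fell by 0.96 ± 0.24, with fresh replicate 5 at 6.77 and the other fresh arrays at 5.08 to 5.69, and differed by -0.52 against fresh replicates 1 to 3 (adjusted p = 0.00465). Egr4 was at 5.19 ± 0.07 (SD, n = 5) and 4.99 ± 0.18 (adjusted p = 0.33). Nab2, a corepressor that EGR factors induce and that limits them, fell by 0.57 ± 0.12 and Csrnp1, a nuclear protein of the same response, by 2.44 ± 0.34. A dimmer probe set of Nab2 differed by -0.38 and was not called.

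In the AP-1, MAF and ATF list 9 of 17 members were lower and 1 higher (median -0.54). AP-1 is a dimer of a JUN with a FOS or ATF protein, and the subunits differed in how far they fell. Jund, the subunit usually present at steady levels, was at 10.23, 10.03, 9.94, 9.74 and 9.90 in fresh arrays and 7.65, 7.13, 7.53, 7.58 and 7.42 in cultured arrays. The difference was -2.51 ± 0.17 without overlap, and a second, dimmer probe set of Jund differed by -1.61. Junb fell by 2.11 ± 0.17 and Fosl2 fell by 2.07 ± 0.19. Atf3, a repressor induced by stress, was at 9.55, 9.16, 9.43, 7.76 and 8.05 when fresh and 5.38, 5.05, 5.68, 5.31 and 5.44 after culture. Fresh replicates 4 and 5 were lower than the other 3, and the difference was -3.42 ± 0.35 against all fresh arrays and -2.54 against replicates 4 and 5 alone (adjusted p = 0.000538). Mafg, a small MAF partner of NRF2 and of NFE2, was the member that rose, by 0.81 ± 0.15, a call lost with fresh replicates 4 and 5 alone as the reference (0.61, adjusted p = 0.0907). Among Kruppel-like factors 5 of 17 were lower and 1 higher: Klf4 fell by 2.53 ± 0.26 and Klf2, which holds lymphocytes and myeloid cells at rest, by 1.27 ± 0.21, while Klf3 rose by 1.66 ± 0.20.

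Feedback regulators limit the same signals. Of the MAPK and G protein feedback genes 13 of 22 were lower and 1 higher (median -0.64). Dusp1, a nuclear phosphatase that switches off p38 and JNK, was at 8.93, 8.52, 8.80, 9.54 and 9.37 in fresh arrays and 6.85, 6.78, 6.79, 6.85 and 6.45 in cultured arrays. All cultured values lay under the lowest fresh one, and the fall was 4.89-fold (-2.29 ± 0.16). Dusp5, a phosphatase of nuclear ERK, was at 8.94, 8.35, 8.52, 8.79 and 8.70 and then at 6.74, 5.61, 5.45, 5.70 and 5.82, with cultured replicate 1 above the rest of its group. Its fall was 6.95-fold (-2.80 ± 0.19). Spry2, an inhibitor of receptor tyrosine kinase signalling, fell 6.90-fold (-2.79 ± 0.28) and Spred2 2.48-fold (-1.31 ± 0.19). Rgs18, a G protein regulator of blood cells, was the member that rose, by 0.65 ± 0.11.

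Factors that destroy labile transcripts made a mixed list, with 9 of 20 lower and 3 higher (median -0.28), and the higher count was 0 to 2 when single arrays were left out. Zfp36, which binds AU-rich elements and recruits the deadenylase, was at 11.73, 11.89, 11.75, 11.99 and 12.06 in fresh arrays and at 10.42, 10.29, 10.43, 10.21 and 10.29 in cultured arrays. It fell 2.94-fold (-1.56 ± 0.10) and stayed among the brighter genes of the arrays. Zc3h12a, an endonuclease of inflammatory transcripts, fell by 1.26 ± 0.20, Btg2, which links deadenylases to transcripts, fell by 2.13 ± 0.38, and Cnot7, a catalytic deadenylase subunit, by 0.88 ± 0.13.

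The promoters of stimulus-response genes often hold sites for CREB and related factors. A window of 300 bases per start site, 250 before and 50 after it, was read from RefSeq (GRCm38.p6) for 16990 of the measured genes. The letters TGACGT, on either strand, occurred in 6 of 18 MAPK and G protein feedback genes with a window (33.3%), in 6 of 15 AP-1, MAF and ATF genes (40%) and in 9.85% of all 16990. The variant TGCGTCA, which was chosen after the promoters had been read, occurred in 3 of 12 EGR, NR4A and IER genes (25%) and in 3.00% of all. Other motifs and other lists were searched too, and their shares are not given, so the shares here and below are a selection. These are matches of letters and do not show binding. The promoters of Nr4a1 and Dusp1 are shown because both genes fell in every culture and hold several such matches, in capitals. The Nr4a1 stretch lies on the plus strand at chr15:101266596-101266835, with TGCGTCA starting at bases -235, -215, -71 and -42 from the start site. The Dusp1 stretch lies on the minus strand at chr17:26508523-26508672, with TGACGT at -191 and at -143, the latter overlapping its reverse complement in the full palindrome.
Nr4a1: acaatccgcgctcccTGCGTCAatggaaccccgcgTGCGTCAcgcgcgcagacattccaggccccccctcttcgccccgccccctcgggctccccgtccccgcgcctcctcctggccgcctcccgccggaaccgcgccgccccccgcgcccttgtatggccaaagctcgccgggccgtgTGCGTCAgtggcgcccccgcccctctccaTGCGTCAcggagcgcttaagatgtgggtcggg
Dusp1: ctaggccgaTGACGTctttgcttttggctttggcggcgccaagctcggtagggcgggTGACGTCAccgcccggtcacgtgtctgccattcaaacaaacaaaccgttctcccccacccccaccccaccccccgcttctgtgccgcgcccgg

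Many secreted mediators are encoded by genes that respond to such factors. Of the chemokine and cytokine genes 11 of 42 were lower and 2 higher (median -0.15). Tnf, a central inflammatory cytokine, was at 7.85, 8.0, 8.07, 8.80 and 8.87 in fresh arrays and 5.51, 6.35, 5.09, 5.77 and 5.34 in cultured arrays, a fall of 6.53-fold (-2.71 ± 0.30) without overlap. Lif, a cytokine of the IL-6 family, was at 7.12, 7.39, 6.92, 6.37 and 6.91 and then at 4.94, 4.68, 4.93, 5.04 and 4.91. It fell 4.12-fold (-2.04 ± 0.15) without overlap. Vegfa, a growth factor for endothelium, was at 9.28, 9.19, 9.08, 8.49 and 8.65 when fresh and at 5.84, 6.25, 6.06, 6.50 and 5.80 after culture, a fall of 7.21-fold (-2.85 ± 0.29). Chemokine genes moved in either direction: Ccl4 fell by 2.29 ± 0.25, Ccl3 fell by 1.14 ± 0.11 and Cxcl10 fell by 2.09 ± 0.19, while Ccl9 rose by 1.37 ± 0.13. Ltb, a lymphotoxin subunit made by lymphoid-primed cells, fell by 1.96 ± 0.28.

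Cyclooxygenase 2 makes prostaglandins on induction, whereas the 5-lipoxygenase pathway makes leukotrienes. Ptgs2, which encodes cyclooxygenase 2, was at 8.07, 7.68, 8.47, 9.48 and 9.34 in fresh arrays and at 3.38, 3.52, 3.32, 4.0 and 3.93 in cultured arrays. Its difference of -4.98 ± 0.29 was -5.78 with fresh replicates 4 and 5 alone as the reference. Ptger4, a receptor for prostaglandin E2, fell by 1.18 ± 0.20. Alox5ap, the helper protein of 5-lipoxygenase, rose from 9.80, 9.64, 9.28, 9.63 and 9.55 to 10.56, 10.79, 10.77, 10.47 and 10.52 (1.04 ± 0.11), and Alox5 itself by 1.22 ± 0.27. Tbxas1, the thromboxane synthase, rose by 1.24 ± 0.13 and Hpgds, the prostaglandin D synthase of blood cells, by 1.65 ± 0.28. In all 5 of 24 members were higher and 2 lower (median 0.05), with 3 and 1 against fresh replicates 4 and 5 alone.

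**Figure D3:**
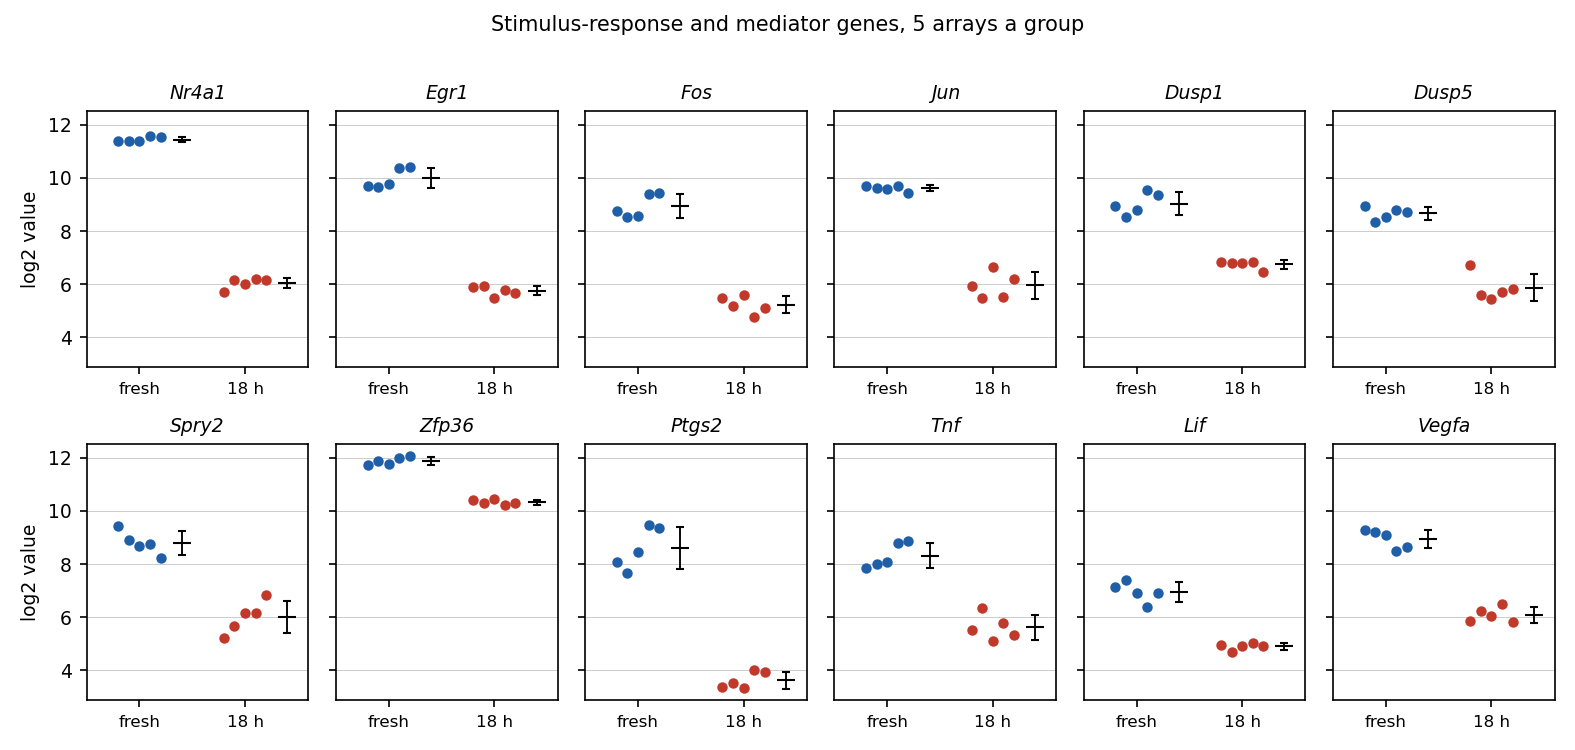
Log2 values of 12 stimulus-response and mediator genes in the 5 fresh (blue) and 5 cultured (red) arrays, in replicate order within each group; black marks are means with SD. In every panel the 5 cultured values lie below the 5 fresh values, and Nr4a1 shows the widest gap (means 11.44 and 6.05).

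Pattern recognition receptors and their adaptors were more often higher than lower, with 13 of 43 against 4 (median 0.29). Without cultured replicate 3 the count of higher members was 8, with fresh replicates 4 and 5 alone as the reference it was 6, and the count of lower ones was 1 to 4 when single arrays were left out. Tlr7, an endosomal sensor of RNA, was at 4.11, 4.15, 6.20, 5.10 and 5.18 in fresh arrays and 7.74, 7.39, 7.84, 6.59 and 6.76 in cultured arrays, a rise of 4.97-fold (2.31 ± 0.36). The fresh values spread over 2 log2 units, yet all lay below the cultured ones. Naip2, an inflammasome sensor, rose by 1.13 ± 0.24 and Casp1, the inflammasome protease, by 0.71 ± 0.14. The inflammasome receptor Nlrp3 differed by -1.04 ± 0.31 with overlapping groups, and its call was kept in 3 of 10 leave-out fits. Traf6, an adaptor, fell by 0.75 ± 0.18.

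Cytokine receptors were higher in 19 of 35 cases and lower in 3 (median 0.41), and 10 were higher against fresh replicates 4 and 5 alone. Csf2rb2, the signalling chain of the IL-3 receptor, was at 5.14, 5.01, 5.54, 4.52 and 5.02 in fresh arrays and 8.44, 9.03, 8.75, 8.81 and 9.24 in cultured arrays. It rose 14.0-fold (3.81 ± 0.18), and its close homologue Csf2rb, the common beta chain for IL-3, IL-5 and GM-CSF, rose 3.51-fold (1.81 ± 0.25). These genes are near-identical copies, so a share of each signal may come from the other. Lifr, the receptor chain for LIF, was at 3.96, 3.71, 3.73, 4.13 and 3.66 and then at 6.38, 6.34, 6.56, 5.90 and 6.29 (2.45 ± 0.15). Il10ra rose by 2.07 ± 0.25 and Tnfrsf1b, a TNF receptor, by 1.47 ± 0.19. Flt3, the receptor of multipotent and lymphoid-primed progenitors, showed a small shift of high precision, from 8.95, 9.05, 8.89, 9.02 and 8.94 to 9.50, 9.58, 9.66, 9.64 and 9.62 (0.63 ± 0.07, adjusted p = 7.09e-06). Among the 3 lower members, Il1r2, the decoy receptor for IL-1, was at 9.01, 8.33, 8.16, 6.41 and 6.94 in fresh arrays and 4.17, 5.07, 4.51, 4.80 and 4.38 in cultured arrays. Its difference was -3.91 against fresh replicates 1 to 3 and -2.09 against replicates 4 and 5, called with either reference.

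Among targets of STAT factors behind these receptors 5 of 25 were higher and 6 lower (median -0.10), and against fresh replicates 4 and 5 alone 1 was higher and 5 were lower. Socs3, the feedback inhibitor of gp130 receptors, was at 7.77, 7.24, 7.01, 7.52 and 7.40 and then at 4.47, 5.35, 5.56, 5.90 and 5.49, a fall of 2.03 ± 0.24 in its brighter probe set and 0.58 in the dimmer one. Pim1, a survival kinase, fell by 1.80 ± 0.21 in the brighter probe set, while its dimmer one differed by -0.34 and was not called. Socs5 rose by 1.04 ± 0.17.

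Stem cells are held in marrow by CXCR4 and by integrins that bind stromal ligands. Among chemokine, homing and egress receptors 6 of 23 were higher and 0 lower (median 0.55), and 1 was lower without fresh replicate 5 or without both fresh replicates 4 and 5. Cxcr4, the receptor for CXCL12, was at 8.87, 8.70, 8.63, 8.31 and 7.92 in fresh arrays and 10.69, 10.80, 10.88, 10.56 and 10.87 in cultured arrays. That was a rise of 4.83-fold (2.27 ± 0.14) without overlap. Selplg, the P-selectin ligand, rose by 1.14 ± 0.10, Ccr2, the receptor that moves monocytes out of marrow, by 2.10 ± 0.19, and Ccr1 by 0.92 ± 0.13. Of 25 integrin subunits 8 were higher and 2 lower (median 0.18). Itgae, an alpha chain that pairs with beta 7, was at 4.6, 4.52, 4.16, 4.34 and 4.87 and then at 7.54, 7.86, 8.20, 7.88 and 7.96, a rise of 10.5-fold (3.39 ± 0.14). Itga2b, the megakaryocyte alpha chain that pairs with beta 3, rose by 1.02 ± 0.14, whereas Itgal, the alpha chain of LFA-1, fell by 0.71 ± 0.11.

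Granulocyte genes are described by maturation stage. Promyelocytes make the primary granule proteins, and later stages make the secondary and tertiary granule proteins and the calprotectin pair. Among primary granule and early granulocyte genes 4 of 16 were higher and 3 lower (median 0.09), with 2 and 0 against fresh replicates 4 and 5 alone. Mpo, myeloperoxidase, was at 10.46, 10.36, 10.53, 10.17 and 10.08 in fresh arrays and 9.63, 9.52, 9.76, 9.74 and 9.67 in cultured arrays, a fall of 0.66 ± 0.12. With fresh replicates 4 and 5 alone as the reference the difference was -0.46 and not called (adjusted p = 0.0919). Elane, neutrophil elastase, differed by 0.11 ± 0.25 and the granulocyte factors Cebpe by 0.14 ± 0.24, Cebpa by 0.06 ± 0.16 and Gfi1 by -0.08 ± 0.13, all not called. Hp, haptoglobin, stored in granules, rose from 5.21, 5.43, 5.61, 5.13 and 5.04 to 7.94, 8.03, 8.57, 7.44 and 7.56 (6.15-fold).

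In the list of secondary and tertiary granule and late neutrophil genes 8 of 23 were higher and 1 lower (median 0.51). S100a8, a calprotectin subunit, was at 9.37, 9.20, 9.28, 5.92 and 6.42 in fresh arrays and at 11.08, 10.87, 10.99, 10.59 and 10.42 in cultured arrays. The fresh arrays thus fell into replicates 1 to 3 and replicates 4 and 5. The rise was 2.75 ± 0.56 against all 5, 1.5 against replicates 1 to 3 and 4.62 against replicates 4 and 5. S100a9, its partner, showed the same division, at 9.32, 9.47, 8.63, 6.02 and 6.26 when fresh and 10.66, 10.51, 10.59, 10.42 and 9.66 after culture, with rises of 2.43, 1.23 and 4.23 against the same references. Lcn2, an iron-scavenging granule protein, rose by 1.89 ± 0.30, with 1.41 against replicates 1 to 3. Ngp, a secondary granule protein, rose by 1.73 against all fresh arrays but by 0.74 and without a call against replicates 1 to 3 (adjusted p = 0.158). Camp differed by 0.70 and -0.05 against the same references and was not called. Cybb, the catalytic subunit of the phagocyte oxidase, was at 5.69, 5.07, 4.86, 4.54 and 4.41 and then at 7.28, 7.92, 7.87, 6.91 and 6.82 (2.44 ± 0.32). Ltf and Ly6g, which mark later neutrophil stages, differed by 0.14 ± 0.26 and 0.12 ± 0.18. The 12 mature neutrophil markers include S100a8, S100a9, Ngp, Camp, Ltf and Ly6g, so their summed signal is not a separate measure. The part of mature neutrophils in these differences was not tested.

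Monocyte and macrophage genes were higher in 25 of 48 cases and lower in 2, with a median of 0.72, and the count was 24 with fresh replicates 1 to 3 alone as the reference. F13a1, a coagulation factor of monocytes, was at 5.55, 4.93, 5.37, 5.35 and 4.62 in fresh arrays and 8.31, 8.80, 8.22, 8.11 and 8.03 in cultured arrays, a rise of 8.74-fold (3.13 ± 0.20). Csf1r, the M-CSF receptor, was at 5.14, 5.23, 5.01, 5.74 and 4.80 and then at 7.71, 7.68, 7.08, 7.19 and 7.45, a rise of 4.73-fold (2.24 ± 0.17). Lyz2, lysozyme, was already bright at 9.54, 9.68, 9.42, 9.69 and 9.65 and reached 11.48, 11.51, 11.40, 11.36 and 11.15 (1.78 ± 0.11). Lyz2 has a near-identical neighbour, Lyz1, so its probe set may read both. None of these 3 genes had overlapping groups, and fresh replicates 4 and 5 were not apart from the other fresh arrays. Irf8, which directs progenitors to monocytes and dendritic cells, was at 7.17, 6.83, 5.68, 7.16 and 6.48 and then at 7.53, 8.42, 8.51, 8.59 and 8.40 (1.63 ± 0.26). The master factor Spi1 differed by 0.29 ± 0.11 and was not called (adjusted p = 0.091). Of 13 mature macrophage markers 2 were called higher, both without overlap, and 0 against fresh replicates 4 and 5 alone. These were Adgre1, which encodes F4/80, at 0.56 ± 0.13, and Spic, a factor of red pulp macrophages, at 1.06 ± 0.30, whose call was kept in 6 of 10 leave-out fits. Among the uncalled ones, C1qa differed by 0.15 ± 0.09, Mrc1 by -0.04 ± 0.12 and Cd163 by -0.04 ± 0.11. Apoe, a macrophage lipid carrier, fell by 0.71 ± 0.12.

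Fc and complement receptors had 9 of 26 members higher and 0 lower (median 0.24). Tyrobp, the adaptor DAP12, was at 9.07, 8.67, 8.94, 8.54 and 8.73 and then at 10.47, 10.60, 10.48, 10.15 and 10.24 (1.6 ± 0.12). Fcer1g, the common gamma chain of Fc receptors, rose by 1.32 ± 0.20 and C3ar1, the receptor for complement C3a, by 2.30 ± 0.19. Among genes of mast cells, basophils and eosinophils 5 of 21 were higher and 1 lower (median 0.09), with 2 and 0 against fresh replicates 4 and 5 alone. Prg2, the eosinophil major basic protein, was at 4.92, 5.05, 4.73, 5.17 and 4.72 in fresh arrays and 8.82, 6.48, 9.51, 6.94 and 8.31 in cultured arrays. The cultured samples spread over 3 log2 units, and the difference of 3.09 ± 0.77 was 3.06 and not called against fresh replicates 4 and 5 alone (adjusted p = 0.154). Cpa3, a mast cell protease, rose by 0.95 ± 0.17, while Hdc, which makes histamine, fell by 0.70 ± 0.16.

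MHC class II molecules present antigen to helper T cells. Of the dendritic cell and MHC class II genes 10 of 25 were lower and 3 higher (median -0.20), and 6 were lower against fresh replicates 4 and 5 alone. H2-Ab1, a class II beta chain, was at 8.49, 8.60, 8.45, 8.69 and 8.41 in fresh arrays and 7.5, 6.75, 6.52, 6.89 and 6.80 in cultured arrays, a fall of 3.12-fold (-1.64 ± 0.26). Its partner chain H2-Aa fell by 1.90 ± 0.19. The costimulatory molecule Cd86 was at 6.19, 5.07, 5.60, 5.28 and 4.87 and then at 3.97, 3.97, 4.26, 4.39 and 4.03 (-1.28 ± 0.21), and Cd83, a surface protein of activated antigen-presenting cells, fell by 1.13 ± 0.17. The plasmacytoid marker Siglech rose by 1.18 ± 0.23, and Irf8 was a further member that rose. MHC class I and antigen loading genes had 2 of 20 higher and 5 lower (median -0.23), and the lower count was 3 when fresh replicate 1, 3 or 5 or cultured replicate 1 or 5 was left out and 1 with fresh replicates 4 and 5 alone as the reference. H2-K1, a classical class I heavy chain, fell by 0.34 ± 0.08, and B2m, the invariant light chain, differed by 0.06 ± 0.06.

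**Figure D4:**
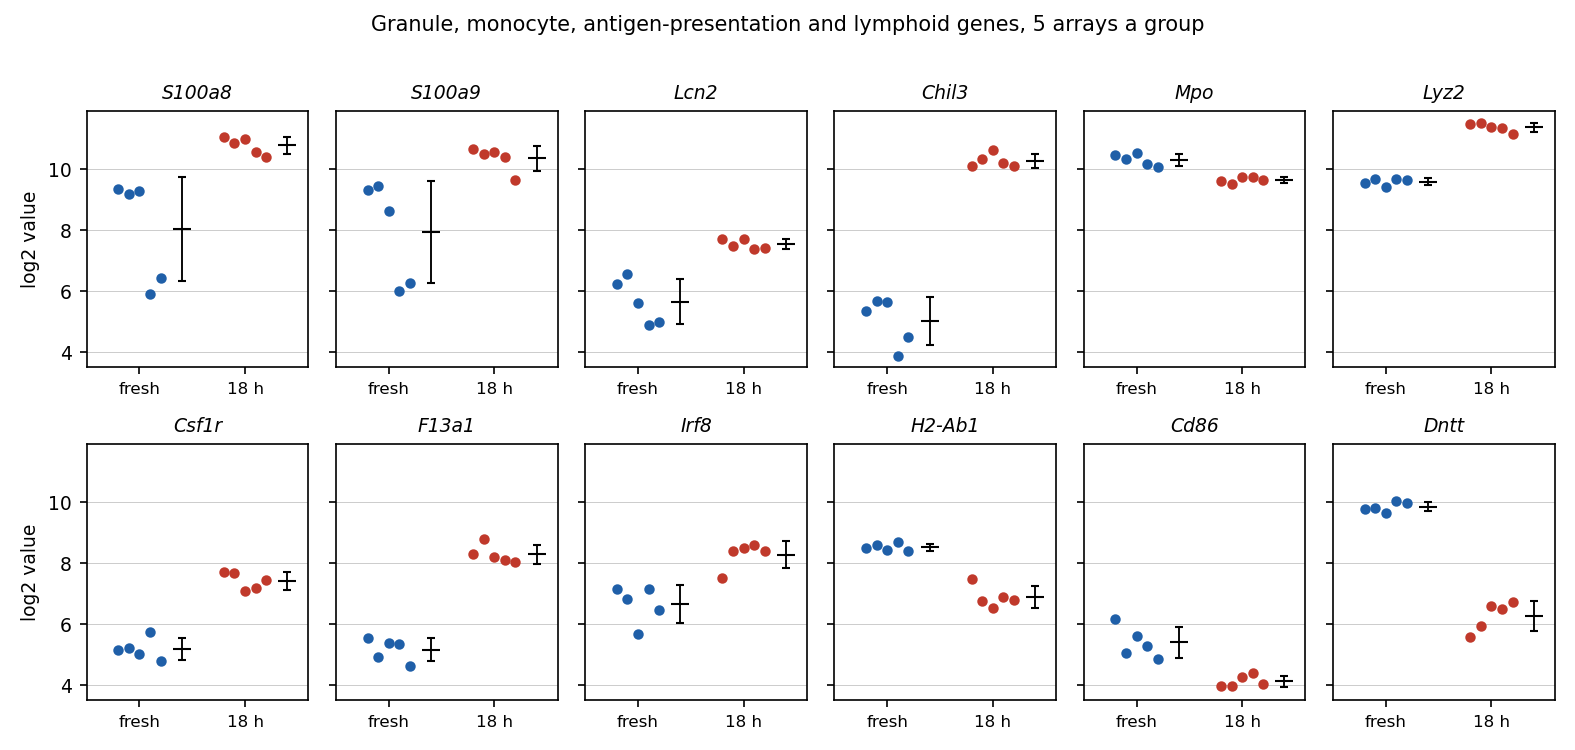
Log2 values of 12 granule, monocyte, antigen-presentation and lymphoid genes in the 5 fresh (blue) and 5 cultured (red) arrays, in replicate order within each group; black marks are means with SD. Fresh replicates 4 and 5 are the low pair for S100a8, S100a9, Lcn2 and Chil3, whereas the fresh values of Lyz2 lie between 9.42 and 9.69.

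Lymphoid priming genes were mostly not called, with 1 of 29 higher and 5 lower (median -0.08). Dntt, terminal transferase, which is switched on in lymphoid-primed progenitors, was at 9.79, 9.81, 9.67, 10.06 and 9.99 in fresh arrays and 5.58, 5.93, 6.61, 6.49 and 6.73 in cultured arrays. No other member of the list fell by as much (12.1-fold, -3.60 ± 0.25). Mef2c, a factor of lymphoid and myeloid choice, fell by 0.94 ± 0.15 and Notch1 by 0.46 ± 0.10. Pax5, the B cell factor, differed by 0.01 ± 0.12.

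Of 20 erythroid genes 5 were higher and 1 lower (median 0.10), and 2 were higher against fresh replicates 4 and 5 alone. Gfi1b, a repressor needed in both lineages, was at 6.50, 6.83, 7.36, 7.79 and 7.54 and then at 8.82, 8.61, 8.77, 9.06 and 9.17 (1.68 ± 0.22). Gata1, the master factor of these lineages, was at 4.83, 4.85, 5.21, 5.08 and 5.03 and then at 5.76, 5.63, 6.03, 5.64 and 5.46 (0.70 ± 0.19), and this was not called with fresh replicates 4 and 5 alone as the reference (0.65, adjusted p = 0.205). Rhag, a Rhesus-associated membrane protein, rose by 2.12 ± 0.21, while Klf1 differed by 0.34 ± 0.14 and the erythropoietin receptor Epor by 0.17 ± 0.12, both not called. Of 24 megakaryocyte and platelet genes 6 were higher and 1 lower (median 0.17). Itgb3, the platelet integrin beta 3, was at 5.27, 4.77, 4.97, 5.69 and 5.95 and then at 8.69, 9.23, 8.87, 9.16 and 9.17. Selp, P-selectin, fell from 7.35, 7.49, 7.29, 7.14 and 7.25 to 6.15, 6.23, 6.11, 6.07 and 6.51 (-1.09 ± 0.11). Pf4, platelet factor 4, differed by 0.73 ± 0.26 without a call (adjusted p = 0.0783).

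Transcription factors of stem and progenitor cells had 10 of 42 members higher and 6 lower, with a median of 0.03, with 10 higher and 3 lower against fresh replicates 1 to 3 and 5 higher and 7 lower against replicates 4 and 5. Hmga2, a chromatin protein of fetal-type stem cells, rose by 1.35 ± 0.17, Cbfa2t3, a corepressor in the TAL1 complex, by 1.36 ± 0.22 and Tal1 by 0.91 ± 0.19. Lmo2, the bridging protein of the same complex, fell by 0.67 ± 0.08, Mecom, which maintains stem cells, by 0.73 ± 0.16 and Id3 fell by 0.99 ± 0.23. A dimmer probe set of Mecom differed by -0.63 and was not called. Myb rose by 0.48 ± 0.10, a call lost with fresh replicates 4 and 5 alone (0.32, adjusted p = 0.138). Runx1 differed by 0.31 ± 0.10, Meis1 by 0.36 ± 0.19, Hlf by -0.28 ± 0.11 and Myc by 0.36 ± 0.20, none of them called. Fresh Myc values were 8.77, 8.27, 8.21, 9.36 and 9.34, with replicates 4 and 5 highest, and cultured values were 8.88, 9.14, 9.10, 9.39 and 9.24.

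Among stem cell surface and niche genes 11 of 33 were higher and 5 lower (median 0.13), and 2 were lower against fresh replicates 4 and 5 alone. Eng, endoglin, rose by 0.90 ± 0.13, Esam, an adhesion molecule of stem cells, by 0.74 ± 0.11 and Aldh1a1, a retinaldehyde dehydrogenase, by 1.4 ± 0.18. Procr, which encodes the endothelial protein C receptor, was at 5.67, 5.76, 5.60, 5.64 and 6.24 and then at 5.60, 5.45, 5.43, 5.73 and 5.71. These groups overlapped, and the difference was -0.20 ± 0.15 (adjusted p = 0.512). The SLAM receptor Slamf1 differed by -0.51 ± 0.17 (adjusted p = 0.0662), and Cd48 by -0.80 ± 0.23 with a call kept in 4 of 10 leave-out fits. Of 30 Hox genes 2 were higher and 0 lower (median 0.04), and 1 was higher against fresh replicates 4 and 5 alone. The share of higher members, 6.67%, was near the 6.75% over all genes, so the list as a whole did not stand out. Hoxb4 was at 6.09, 5.72, 6.56, 6.36 and 5.74 and then at 7.27, 7.03, 7.70, 7.94 and 7.89 (1.47 ± 0.22), its neighbour in the cluster Hoxb3 rose by 0.96 ± 0.25, and Hoxa10 differed by 0.20 ± 0.08 without a call.

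Most genes of DNA replication were lower after culture. MCM helicases are loaded on origins in G1, and polymerases, the PCNA clamp and nucleotide enzymes act in S phase. Of 41 replication licensing and fork genes 35 were lower and 1 higher (median -1.2), and the lower count was 32 with fresh replicates 1 to 3 and 27 with replicates 4 and 5 as the reference. Mcm2 was at 7.92, 7.67, 7.73, 7.98 and 7.88 in fresh arrays and 6.04, 6.35, 6.07, 6.28 and 5.97 in cultured arrays, a fall of 3.24-fold (-1.70 ± 0.10). Pole, the catalytic subunit of leading-strand polymerase, was at 7.27, 7.26, 7.07, 7.35 and 7.31 and then at 4.43, 4.79, 4.65, 4.91 and 4.76 (-2.54 ± 0.13), while a second, dimmer probe set differed by -0.85 and was not called. Dtl, the adaptor that degrades the licensing factor CDT1 in S phase, fell 8.04-fold, and Uhrf1, which guides maintenance methylation to new DNA, 6.31-fold. Rfc2, a clamp loader subunit, was the member called higher (0.45 ± 0.14), a call that was lost in 5 of 10 leave-out fits.

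Nucleotide synthesis genes were lower in 18 of 29 cases and higher in 2 (median -0.56), with 12 lower against fresh replicates 1 to 3 and 8 lower and 0 higher against replicates 4 and 5. Rrm1, the large subunit of ribonucleotide reductase, was at 8.48, 8.63, 8.42, 8.37 and 8.5 and then at 5.96, 6.69, 6.23, 6.49 and 6.93 (-2.02 ± 0.22). Its partner Rrm2 was at 7.79, 7.92, 7.87, 7.65 and 8.02 in fresh arrays but at 4.29, 4.2, 6.78, 6.03 and 4.85 in cultured arrays, where replicates 3 and 4 were the highest. Samhd1, which degrades deoxynucleotides, was the opposite, with a rise of 0.37 ± 0.10 that was kept in 9 of 10 leave-out fits. Serine, glycine and one-carbon genes, which supply purine and thymidine synthesis, were lower in 9 of 22 cases and higher in 1 (median -0.18). Phgdh, the first enzyme of serine synthesis, was at 7.91, 8.18, 8.33, 7.58 and 8.09 and then at 6.06, 6.47, 5.47, 6.29 and 6.58 (-1.85 ± 0.21), and the mitochondrial enzyme Shmt2 fell by 1.37 ± 0.21 and its partner Mthfd1l fell by 1.11 ± 0.12. Replication-dependent histone genes were lower in 9 of 25 cases and higher in 0 (median -0.34). H2ac15 was at 9.24, 9.34, 9.60, 9.53 and 9.49 and then at 8.07, 7.69, 7.52, 6.93 and 6.91. Histone genes of a cluster are near-identical copies, so the assignment of signal among them is uncertain.

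DNA repair and checkpoint genes were lower in 20 of 41 cases and higher in 2 (median -0.41). Brca1, of homologous recombination, was at 5.21, 6.08, 5.65, 5.65 and 5.91 and then at 3.89, 3.55, 3.61, 3.51 and 3.58 (-2.07 ± 0.13). Chek1, the kinase that answers stalled forks, was at 6.36, 6.29, 5.77, 6.50 and 6.15 and then at 4.36, 4.33, 4.24, 4.43 and 4.44 (-1.85 ± 0.15). Chek2, the kinase that answers double-strand breaks, went the other way, from 5.52, 5.64, 5.01, 6.75 and 6.17 to 7.04, 7.42, 7.15, 7.10 and 7.35 (1.39 ± 0.25). Its rise was 1.82 against fresh replicates 1 to 3 and 0.75 against replicates 4 and 5, where it was not called (adjusted p = 0.0598). Atm differed by 0.35 ± 0.16 and was not called.

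Promoters of replication genes are known for E2F sites and CCAAT boxes. The E2F letters GCGGGAA, on either strand, occurred in the window of 14 of 33 replication licensing and fork genes (42.4%), in 12 of 35 DNA repair and checkpoint genes (34.3%), in 4 of 27 nucleotide synthesis genes (14.8%) and in 6.89% of all 16990 genes with a window. CCAAT, on either strand, occurred in 24 of the 33 (72.7%) and in 41.6% of all. Uhrf1 and Rrm1 are shown because both fell in all 5 cultures and hold both motifs before the start site; the capitals mark GCGGGAA, here as its reverse complement TTCCCGC, and CCAAT. The Uhrf1 stretch, from the first of its windows with a match, is on the plus strand at chr17:56303217-56303333, with the E2F letters at base -48. The Rrm1 stretch is on the plus strand at chr7:102441575-102441694, with them at base -67 between CCAAT boxes at -91 and -45.
Uhrf1: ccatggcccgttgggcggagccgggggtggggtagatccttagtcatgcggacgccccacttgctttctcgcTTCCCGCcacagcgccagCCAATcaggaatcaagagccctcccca
Rrm1: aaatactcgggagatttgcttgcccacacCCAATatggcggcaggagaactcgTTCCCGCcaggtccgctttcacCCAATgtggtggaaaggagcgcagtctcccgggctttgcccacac

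Cyclins and their inhibitors did not move as a block, with 4 of 38 higher and 16 lower (median -0.41). The D cyclins, which start G1, differed among themselves. Ccnd2 was at 8.14, 8.45, 8.52, 8.5 and 8.36 in fresh arrays and 6.91, 6.92, 7.37, 6.54 and 7.05 in cultured arrays (-1.44 ± 0.15), and Ccnd1 fell by 1.09 ± 0.20. Ccnd3 was at 7.72, 7.64, 7.83, 7.92 and 7.77 and then at 8.65, 9.01, 8.51, 8.73 and 8.49, a rise of 0.90 ± 0.10. Of the CDK inhibitors, Cdkn1a (p21) fell by 1.4 ± 0.16, whereas Cdkn1b (p27) differed by -0.01 ± 0.09 and Cdkn1c (p57) by -0.01 ± 0.11, both not called. Rb1, the retinoblastoma protein that restrains E2F, rose by 0.79 ± 0.13, while its relative Rbl1 fell by 1.08 ± 0.17. Foxm1, which drives mitotic genes, fell by 1.34 ± 0.19 and Mki67 by 1.2 ± 0.15.

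Targets of p53 were divided as well, with 4 of 27 higher and 7 lower (median -0.02). Trp53inp1 rose by 1.91 ± 0.22 and Ccng1 by 1.02 ± 0.12. Gadd45b fell by 2.08 ± 0.26 and Mdm2, the ligase that degrades p53, by 0.50 ± 0.13. Of the Polycomb and DNA methylation genes 9 of 36 were lower and 3 higher (median -0.11), with 4 and 1 against fresh replicates 4 and 5 alone. The H3K27 methyltransferases were opposite: Ezh2, the form of dividing cells, fell by 0.55 ± 0.12, from 7.68 to 8.19 in fresh arrays to 7.13 to 7.67 in cultured ones. Ezh1, the form of resting cells, rose by 0.85 ± 0.17, from 6.25 to 6.91 in fresh arrays to 7.12 to 7.95. The maintenance methyltransferase Dnmt1 fell by 0.73 ± 0.09, and Tet2, which oxidises methylcytosine, rose by 0.85 ± 0.21.

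Heme and iron genes had 9 of 33 members higher and 1 lower (median 0.14), and 5 were higher against fresh replicates 4 and 5 alone. Heme oxygenase breaks down heme, and ferroportin and ferritin export and store the released iron. Hmox1, heme oxygenase 1, was at 5.68, 4.92, 6.31, 5.21 and 4.89 in fresh arrays and 10.21, 10.63, 10.43, 10.96 and 11.02 in cultured arrays. Slc40a1, ferroportin, was at 4.12, 3.79, 3.90, 3.75 and 3.82 and then at 6.18, 5.96, 6.39, 6.02 and 7.02, a rise of 5.42-fold (2.44 ± 0.20). Slc48a1, a lysosomal heme transporter, rose by 1.42 ± 0.12 and Fth1, the ferritin heavy chain, by 0.56 ± 0.06. Bach1, the repressor of Hmox1, differed by 0.05 ± 0.20, and the transferrin receptor Tfrc by -0.44 ± 0.15, neither called.

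Glutathione and thioredoxin genes were higher in 15 of 41 cases and lower in 3 (median 0.28). Gclm, the modifier subunit of the enzyme that limits glutathione synthesis, was at 7.5, 7.63, 6.96, 7.52 and 7.54 and then at 10.12, 10.23, 10.42, 10.21 and 10.23, a rise of 7.02-fold (2.81 ± 0.12). Its catalytic partner Gclc rose by 1.26 ± 0.12, Cat, catalase, by 1.39 ± 0.12 and Nqo1, a quinone reductase, by 2.95 ± 0.34. Not all members of the system rose: Txnrd1, thioredoxin reductase, differed by -0.44 ± 0.17 and Slc7a11, the cystine carrier, by 1.42 ± 0.59, neither called, and Prdx4, a peroxiredoxin of the endoplasmic reticulum, fell by 1.46 ± 0.18. The antioxidant response element core TGACNNNGC, on either strand, occurred in 8 of 35 members with a window (22.9%) and in 14.9% of all genes. The Gclm promoter, on the plus strand at chr3:122245377-122245506, is shown as that of the gene with the smallest adjusted p of the list, with the match at base -134 (as GCACCGTCA) and a CCAAT box at -158 (as ATTGG) in capitals.
Gclm: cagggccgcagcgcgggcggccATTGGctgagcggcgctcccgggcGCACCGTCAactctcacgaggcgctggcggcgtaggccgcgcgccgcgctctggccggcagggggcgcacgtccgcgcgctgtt

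Sterol and fatty acid synthesis genes were higher in 15 of 33 cases and lower in 2 (median 0.43). SREBP factors turn these genes on together when membrane cholesterol is low. Msmo1, a sterol demethylation enzyme, was at 5.33, 4.58, 4.37, 4.67 and 5.20 and then at 6.41, 7.01, 7.59, 7.07 and 7.11 (2.21 ± 0.23). Hmgcs1, HMG-CoA synthase, was at 6.09, 6.58, 6.90, 6.85 and 6.55 and then at 7.75, 8.25, 8.39, 8.28 and 8.04 (1.54 ± 0.20). Fdft1, squalene synthase, rose by 1.79 ± 0.26, Sqle, squalene epoxidase, by 1.05 ± 0.12 and Fads2, a fatty acid desaturase, by 1.47 ± 0.13. Lss, lanosterol synthase, differed by 0.42 ± 0.16 without a call. CCAAT occurred in the window of 23 of 27 members (85.2%) against 41.6% of all genes, and the SREBP element TCACNCCAC in 1 of 27 (3.70%) against 1.43%. The gene with the element was Hmgcs1, whose promoter on the plus strand at chr13:119690161-119690350 is shown for that reason, with the element (TCACCCCAC) at base -137 and CCAAT boxes, as ATTGG, at -176 and -45 in capitals.
Hmgcs1: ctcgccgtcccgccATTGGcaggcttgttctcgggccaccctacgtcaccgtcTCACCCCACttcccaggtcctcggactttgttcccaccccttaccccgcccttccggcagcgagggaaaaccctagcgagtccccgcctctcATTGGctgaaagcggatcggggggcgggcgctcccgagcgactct

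Lysosomal genes were higher in 30 of 60 cases and lower in 2 (median 0.46), and 22 or 20 were higher with fresh replicates 1 to 3 or 4 and 5 as the reference. Ctsd, cathepsin D, was at 9.61, 9.67, 9.80, 9.65 and 9.66 and then at 10.99, 11.10, 11.11, 11.20 and 11.18 (1.44 ± 0.07, adjusted p = 2.5e-09). Cd63, a tetraspanin of late endosomes, was at 9.93, 9.69, 9.90, 9.90 and 9.54 and then at 11.41, 11.26, 11.29, 11.23 and 11.14 (1.47 ± 0.09). Psap, the precursor of the saposins, rose by 1.38 ± 0.12 and Asah1, acid ceramidase, by 1.61 ± 0.17. Against that direction Arsb, an arylsulfatase, fell by 1.6 ± 0.31 and Gm2a, the GM2 activator, fell by 0.64 ± 0.10. TFEB and related factors bind CACGTG, which occurred in the window of 13 of 50 members (26.0%) and in 9.19% of all genes. The Ctsd promoter, on the minus strand at chr7:142387898-142388077, holds it at bases -245 and -98, in capitals, and is shown because Ctsd had the smallest adjusted p of the list.
Ctsd: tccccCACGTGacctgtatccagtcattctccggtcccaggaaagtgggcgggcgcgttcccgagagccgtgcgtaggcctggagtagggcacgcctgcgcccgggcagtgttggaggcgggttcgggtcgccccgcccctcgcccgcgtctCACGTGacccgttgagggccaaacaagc

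**Figure D5:**
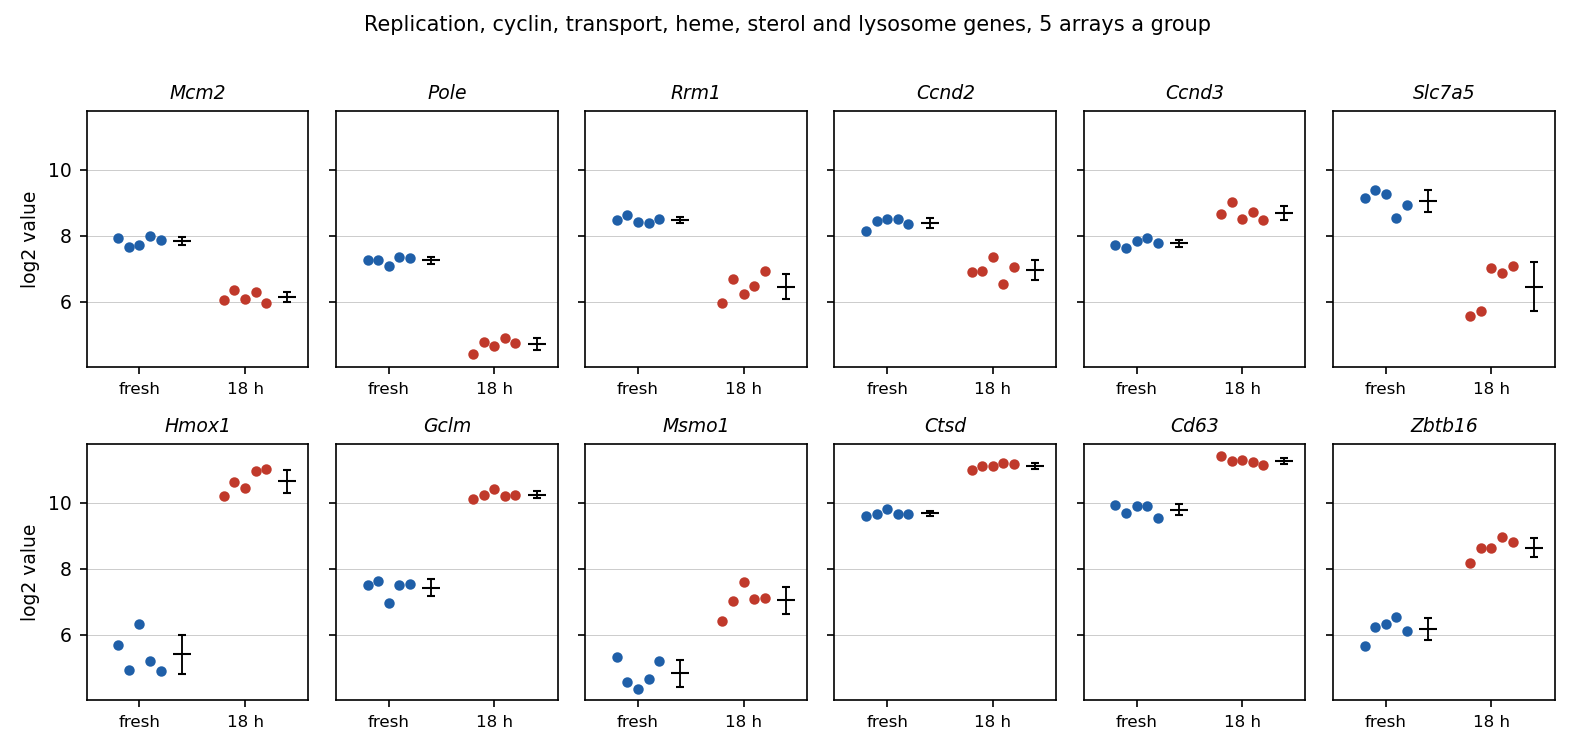
Log2 values of 12 genes of replication, cyclins, amino acid transport, heme, glutathione and sterol metabolism, lysosomes and of Zbtb16 in the 5 fresh (blue) and 5 cultured (red) arrays, in replicate order within each group; black marks are means with SD. Mcm2, Pole, Rrm1, Ccnd2 and Slc7a5 lie lower and Ccnd3, Hmox1, Gclm, Msmo1, Ctsd, Cd63 and Zbtb16 higher after culture, with no overlap in any panel.

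Genes of lipid uptake and efflux, many of them targets of the sterol sensor LXR, had 10 of 23 members higher and 1 lower (median 0.38), with 5 and 0 against fresh replicates 4 and 5 alone. Among 21 metal response and zinc transporter genes 2 were higher and 1 lower (median 0.06).

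Nutrient uptake differed by transporter. Among amino acid transporters 5 of 27 were higher and 8 lower (median -0.06), with 3 and 4 against fresh replicates 4 and 5 alone. Slc7a5, the light chain of the large neutral amino acid carrier of growing cells, was at 9.15, 9.38, 9.26, 8.53 and 8.92 and then at 5.56, 5.73, 7.02, 6.88 and 7.09 (-2.59 ± 0.30), and its heavy chain Slc3a2 fell by 1.24 ± 0.14. Slc7a1, a cationic amino acid carrier, fell by 1.5 ± 0.21. The carriers that rose included Slc36a1, which exports amino acids from lysosomes (1.13 ± 0.14). Glycolysis and hypoxia genes had 5 of 35 higher and 9 lower (median -0.15), with 5 lower when fresh replicate 4 was left out, 3 higher with either set of fresh arrays as the reference, and 3 lower against fresh replicates 4 and 5. The glucose carriers Slc2a1 and Slc2a3 fell by 0.88 ± 0.13 and 1.37 ± 0.17 and Hk2, hexokinase 2, by 1.06 ± 0.19, whereas Pfkfb3, which makes the activator of phosphofructokinase, rose by 1.21 ± 0.23. A dimmer probe set of Slc2a1 differed by -0.45 and was not called. Among fatty acid oxidation, PPAR target and pyruvate kinase genes 8 of 35 were higher and 5 lower (median 0.00), or 4 and 2 against fresh replicates 4 and 5 alone, with Cpt1a, the carnitine transferase that admits fatty acids to mitochondria, at 0.64 ± 0.13.

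Of 53 RNA polymerase I and III and ribosome assembly genes 15 were lower and 1 higher (median -0.17), but 7 were lower with either set of fresh arrays alone as the reference. Nop58, a core protein of box C/D small nucleolar particles, was at 9.38, 9.38, 9.49, 9.42 and 9.51 and then at 7.82, 8.49, 8.33, 8.36 and 8.29 (-1.18 ± 0.11), and the nucleolar helicase Ddx21 fell by 1.09 ± 0.14. Aminoacyl-tRNA synthetases had 3 of 20 lower and 0 higher (median -0.31), or 0 lower against fresh replicates 4 and 5 alone, and polyamine genes 4 of 13 lower and 1 higher. Odc1, which makes the first polyamine, fell from 9.03, 8.97, 8.95, 8.56 and 8.43 to 7.33, 7.34, 7.27, 6.95 and 6.98 (-1.62 ± 0.13), and Sat1, which breaks polyamines down, rose from 7.15, 6.79, 7.24, 7.06 and 7.15 to 7.76, 7.90, 8.22, 8.24 and 8.06 (0.96 ± 0.11). Stress response genes of the integrated stress and unfolded protein pathways were lower in 12 of 38 cases and higher in 2 (median -0.18), and 7 were lower against fresh replicates 4 and 5 alone. Atf4 fell by 0.95 ± 0.13, Ddit3 (CHOP) fell by 1.16 ± 0.17 and Hspa5, the chaperone of the endoplasmic reticulum, fell by 1.03 ± 0.10. Proteasome genes had 10 of 40 lower and 2 higher (median -0.15), but 1 lower and 0 higher against fresh replicates 4 and 5 alone.

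Glucocorticoid targets were divided between the induced and the repressed directions. Of 24 members of the list, which includes the receptor itself, 9 were higher and 4 lower (median 0.23). Zbtb16, the PLZF factor, was at 5.65, 6.24, 6.31, 6.54 and 6.10 and then at 8.17, 8.63, 8.62, 8.95 and 8.80, a rise of 5.52-fold (2.46 ± 0.16). Tsc22d3 (GILZ) rose from 6.55, 6.63, 6.40, 6.21 and 6.26 to 8.17, 7.97, 8.34, 7.98 and 8.40 (1.76 ± 0.11). Mt1, a metallothionein that also answers to metals, rose by 1.32 ± 0.12, and Ddit4, an inhibitor of mTORC1, by 2.03 ± 0.27. Other targets that the receptor induces in many tissues were lower, among them Dusp1, Sgk1 (-1.10 ± 0.18) and Nfkbia (-1.11 ± 0.14), while Per1 differed by -0.04 ± 0.07 and the receptor gene Nr3c1 by -0.30 ± 0.12 without a call. Of 19 circadian clock genes 1 was higher and 2 were lower (median -0.04), and 1 was lower against fresh replicates 4 and 5 alone. Csnk1e, casein kinase 1 epsilon, rose by 1.31 ± 0.12 and Bhlhe40, a repressor of clock genes, fell by 1.4 ± 0.24, while Arntl, Clock and Nr1d1 differed by 0.56 ± 0.24, 0.31 ± 0.29 and -0.03 ± 0.20 without a call.

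Cytoskeletal and migration genes had 7 of 42 higher and 3 lower (median 0.06), or 4 and 1 against fresh replicates 4 and 5 alone, the lower count being 1 to 3 when single arrays were left out. S100a4, a calcium-binding protein of motile cells, was at 7.77, 7.17, 7.46, 7.56 and 7.75 and then at 9.70, 9.64, 9.73, 9.35 and 9.41 (2.02 ± 0.13). Gsn, the actin-severing protein gelsolin, rose by 1.36 ± 0.16 and Vim, vimentin, fell by 1.16 ± 0.18. Among genes often used as references, Actb differed by -0.30 ± 0.13 and was not called (adjusted p = 0.172), and Gapdh fell by 0.39 ± 0.07. Of the dimmer probe sets of Gapdh, 1 was called (-0.43) and the dimmest was not (-0.08). Xist lay at 11.30 to 11.44 in fresh and 11.31 to 11.42 in cultured arrays. Of 23 imprinted genes of the stem cell network 1 was higher and 1 lower: Phlda2 rose by 1.51 ± 0.25, and Igf2r, the receptor that clears IGF2, fell by 0.72 ± 0.15. Cdkn1c, whose value is given above, is a member of that list.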

How the data were processed

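The values are the authors' deposited table of 41345 probe sets on 15 Affymetrix Mouse Gene 2.0 arrays, read as log2 because they run from 1.4 to 13. No source used here gives the base of the logarithm, the background correction or the normalization. MAS5 is named in the submitters' processing notes, with neither role nor version. Each hybridisation started from 500 pg of total RNA, per the labels, and array medians lay between 4.62 and 4.74. No read depth applies, and the number of arrays limits the precision.

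Platform annotation gave 1 gene symbol to 23521 probe sets, several to 1814 and none to 16010, and the brightest probe set of each of 22180 genes was kept. A group-means model over all 15 arrays was fitted with limma 3.58.1 in R 4.3.3 (lmFit, eBayes), and two-sided p-values were Benjamini-Hochberg adjusted over all genes. The fits were tested on simulated data. The members and the 59 gene lists were chosen with earlier results of these data known, and 1435 of 1610 listed genes were measured. A rule set which genes could be named. It allowed the 25 largest called rises and falls in which nearly all array pairs held the sign. Per list it allowed the 6 called members lowest in adjusted p in each direction and 3 uncalled ones. Members of lists of up to 22 and a set of general markers were also allowed. The genes described are a selection from these, and not all of the largest rises and falls are described. Predicted genes were not named, and small RNAs only under the other observations. Promoter sequences are from RefSeq. Alternatives covered normalization, centring, filtering, probe set choice, variance model, array weights, the replicate block, a minimum fold and the arrays included.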

Additional observations from a re-analysis of the deposited data

Results flagged for a closer look

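In each group of 5 arrays, the array farthest from the others was marked where its gap to the nearest array took more than 0.71 of the group's range, a limit that chance passes in about 1 of 20 groups. Of 588 groups screened, over 235 named genes and 59 list means, 28 passed it, which is near that share. The arrays below are therefore listed for inspection and not as findings about single arrays.

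Cultured replicate 1 stood apart for Brca1 at 3.89 (others 3.51 to 3.61), Dusp5 at 6.74 (5.45 to 5.82), Egr2 at 4.80 (4.53 to 4.59), Egr4 at 5.32 (4.89 to 4.94), Irf8 at 7.53 (8.40 to 8.59), Rfc2 at 8.39 (7.86 to 7.97) and Traf6 at 5.40 (5.87 to 6.0). It also had the lowest mean of the RNA polymerase I and III and ribosome assembly genes, at 6.96 against 7.12 to 7.18. Cultured replicate 2 was high for Adgre1 at 4.96 (4.2 to 4.38) and Nlrp3 at 6.15 (5.03 to 5.26) and low for Gfi1 at 4.77 (5.02 to 5.06) and Sgk1 at 4.11 (4.6 to 4.79). Cultured replicate 3 had the highest mean of the labile-mRNA decay factors, 7.71 against 7.48 to 7.54. Cultured replicate 4 was low for Cd83 at 4.96 (5.15 to 5.22), Mdm2 at 7.24 (7.65 to 7.81) and Nr3c1 at 7.04 (7.63 to 7.69). Cultured replicate 5 was low for Dusp1 at 6.45 (6.78 to 6.85) and S100a9 at 9.66 (10.42 to 10.66).

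Among fresh arrays, replicate 1 had the highest mean of the glutathione and thioredoxin genes, 6.99 against 6.75 to 6.80. Fresh replicate 2 was low for Casp1 at 6.35 (6.96 to 7.17) and Rfc2 at 7.02 (7.56 to 7.73). Fresh replicate 3 was high for Csnk1e at 7.43 (6.86 to 7.01) and low for Cd48 at 6.59 (6.97 to 7.09), Gclm at 6.96 (7.5 to 7.63) and Klf2 at 6.18 (7.26 to 7.53). Fresh replicate 4 was low for Cxcl10 at 5.57 (6.38 to 6.71). Fresh replicate 5 was high for Ccr1 at 3.61 (3.30 to 3.36) and Procr at 6.24 (5.60 to 5.76).

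Probe sets outside the gene comparison were tested as well. Over all 41345 probe sets 4.01% were called higher and 4.68% lower after culture. Of 16010 probe sets without a gene name, 302 (1.89%) were called higher and 469 (2.93%) lower, which is under those shares. Of 1814 probe sets with several gene symbols, 90 (4.96%) were called higher and 122 (6.73%) lower.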

How the results depend on the processing

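The counts of 1497 higher and 1525 lower genes moved by less than 1.5 times under quantile normalization (1650 and 1399), median centring (1530 and 1381), removal of the dimmest 40% of genes (1593 and 1573), a fit on the 10 arrays alone (1552 and 1585), an intensity trend with a robust prior (1446 and 1478), the mean of probe sets (1513 and 1540), array weights (1750 and 1756) and all probe sets as features (1660 and 1936). They fell to 637 and 604 when a change of at least 1.2-fold was tested. With fresh replicates 4 and 5 alone as the reference they were 678 and 760, with fewer arrays in the fit, and with replicates 1 to 3 alone 1289 and 1310. Leaving out single arrays gave 1239 to 1455 higher and 1230 to 1444 lower genes, and 399 to 465 and 367 to 418 genes over 2-fold. Over all 41345 probe sets, 627 were higher and 701 lower by more than 2-fold, against 419 and 393 of the 22180 genes. The reason for the larger counts was not tested. The labels do not say whether replicate numbers pair the samples. Same-numbered deviations over all genes correlated between -0.09 and 0.03, which cannot exclude a weak pairing. A fit with the replicate number as a block gave 1499 higher and 1488 lower genes. Of 194 called genes named in the text, 156 were called in the same direction under every alternative run, 25 lost their call at the 1.2-fold minimum, 1 under the block (Kit, whose call also depended on single arrays), and none of the 235 named genes had a called value that changed sign. Arrays limit precision by their number, and dim genes near background were rarely called.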

Other observations

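Small RNA genes held some of the deepest falls, and the genes named here were chosen after their values were seen. Snord13, a box C/D small nucleolar RNA, was at 10.20, 9.86, 10.05, 10.54 and 10.38 in fresh arrays and at 6.08, 3.12, 5.58, 4.13 and 2.85 in cultured arrays. It fell by 5.85 ± 0.59 (SE) without overlap (limma adjusted p = 4.58e-06), and the cultured values were widely spread. Snord118, the U8 RNA that takes part in processing of ribosomal RNA, was at 9.22, 8.95, 9.44, 8.77 and 8.76 and then at 4.89, 5.11, 4.19, 4.86 and 4.35, a fall of 4.35 ± 0.28. Rnu12, the U12 RNA of the minor spliceosome, fell by 2.27 ± 0.18 and Terc, the RNA template of telomerase, by 1.4 ± 0.24. Among the 171 genes annotated as pseudogenes 18 (10.5%) were called lower and 0 higher, beside 6.88% lower and 6.75% higher over all genes. The 478 miRNA genes, whose probes read precursor transcripts, had 9 higher (1.88%) and 7 lower (1.46%), under those shares.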
